A study of Mus musculus with 11 samples.

Results

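The genes described here handle zinc in the cell. They are the metallothioneins *Mt1* and *Mt2*, the zinc-sensing transcription factor *Mtf1*, the ZIP importers *Slc39a4*, *Slc39a5* and *Slc39a14*, and the ZnT exporters *Slc30a1* and *Slc30a10*. They were found by gene symbol. No measured value enters this rule, but the 8 genes were picked with earlier results of these data known. All 8 were among the 13669 genes counted in the liver, and all 8 passed the filter on low reads that left 13334 genes for testing. The samples were the livers of 11 male wild-type C57BL/6J mice on regular chow. In 6 of them a recombinant adeno-associated virus expressed a tough decoy inhibitor, a hairpin RNA that can bind *miR-379* and *miR-541* (AAV-TuD), and in 5 it expressed a negative control sequence (AAV-NC). The supplement of the study lists the AAV-NC insert apart from TuD-NC, a control decoy. The groups may therefore differ in the type of RNA expressed as well as in miRNA binding. Both groups had received a virus of serotype 8 by tail vein, with its transcript driven by the liver-specific LP1 promoter, and no group without virus was compared. The study describes a short fast before killing and a range of weeks to months after the virus for its TuD experiments in general, and neither the age at killing nor the interval is given for each of these 11 animals in the sources used here. The comparison asks which liver transcripts changed with the decoy.

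Zinc is a cofactor of a large number of enzymes and transcription factors, and its free concentration in the cytosol is kept very low. Metallothioneins are small cysteine-rich proteins that bind zinc and copper. ZIP (Slc39) proteins carry zinc into the cytosol, and ZnT (Slc30) proteins carry it out of the cell or into organelles. MTF1 binds metal response elements when zinc rises and switches on *Mt1*, *Mt2* and *Slc30a1*. In the liver, metallothionein genes are also known to respond to glucocorticoids and to inflammatory signals, and 2 of the carriers, *Slc30a10* and *Slc39a14*, are best known for manganese transport.

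The promoter windows of the 4 genes below are shown because metal response elements lie upstream of classical MTF1 targets and because the metallothioneins moved in the direction opposite to the exporters. Each is the 250 bases before the RefSeq start of the gene on GRCm38.p6, on the plus strand, with matches to the metal response element core in capitals. The motif was searched as TGCACNC or TGCGCNC on both strands, so a match on the other strand reads GNGTGCA or GNGCGCA. Matches that overlap run together.
*Mt1* (chr8:94178839-94179088): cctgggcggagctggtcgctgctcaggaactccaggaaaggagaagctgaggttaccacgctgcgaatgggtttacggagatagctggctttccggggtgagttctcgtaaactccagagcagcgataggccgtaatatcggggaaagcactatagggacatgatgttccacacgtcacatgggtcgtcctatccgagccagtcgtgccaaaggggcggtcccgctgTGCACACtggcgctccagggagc
*Mt2* (chr8:94172368-94172617): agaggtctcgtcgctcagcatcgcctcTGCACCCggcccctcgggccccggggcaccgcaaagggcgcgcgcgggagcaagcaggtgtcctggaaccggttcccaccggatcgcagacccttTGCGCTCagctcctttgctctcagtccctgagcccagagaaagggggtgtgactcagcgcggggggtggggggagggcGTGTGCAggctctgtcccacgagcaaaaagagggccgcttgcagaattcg
*Slc30a1* (chr1:191906531-191906780): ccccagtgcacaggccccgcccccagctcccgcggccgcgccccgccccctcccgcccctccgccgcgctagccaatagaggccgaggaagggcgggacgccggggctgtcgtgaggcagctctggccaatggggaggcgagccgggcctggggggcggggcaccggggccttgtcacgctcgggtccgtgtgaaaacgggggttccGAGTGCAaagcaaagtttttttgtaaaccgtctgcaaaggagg
*Slc30a10* (chr1:185454598-185454847): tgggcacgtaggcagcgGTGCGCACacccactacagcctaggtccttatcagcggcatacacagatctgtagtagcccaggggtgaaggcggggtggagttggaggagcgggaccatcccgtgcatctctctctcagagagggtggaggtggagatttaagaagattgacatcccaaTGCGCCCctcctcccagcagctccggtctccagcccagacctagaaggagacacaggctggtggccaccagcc

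With the 50 bases after the start added, *Mt2* held 4 matches, *Mt1* held 3, *Slc30a10* held 3 and *Slc30a1* held 2. The *Mt1* matches lay close together, at −23 relative to the start and at positions 3 and 21 after it. Those of *Mt2* were spread over the window, at −223, −128 and −50 relative to the start and at position 5 after it. In *Slc30a10*, 2 of the 3 matches were overlapping readings of nearly the same letters on opposite strands. Of all 32851 RefSeq windows of the same 300 bases, 25.7% held at least 1 match, 7.11% at least 2, 1.97% at least 3 and 0.518% at least 4. *Mtf1* had no match, and *Slc39a5*, which has a pair of annotated starts, had 1 match in 1 of its windows. Windows were used for 6 of the 8 genes, and *Slc39a4* and *Slc39a14* were the others. A match describes letters in a window and is not a measured binding site. Positions follow the annotated start, which was not checked against where transcription begins in these livers. Letters outside the windows were not searched, so the counts need not cover all elements of a gene.

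The decoy was directed at the following mature miRNAs, given from RefSeq with the seed, bases 2 to 8, in capitals. They are encoded on chromosome 12 of GRCm38.p6, plus strand.
miR-379-5p (chr12:109709065-109709085): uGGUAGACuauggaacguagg
miR-541-5p (chr12:109742422-109742446): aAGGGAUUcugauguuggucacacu

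Their seeds differ. No 3′ UTR of the 8 genes held the complement of the *miR-379-5p* seed, and only that of *Slc39a14* held the complement of the *miR-541-5p* seed. The study reports that the decoy also lowered the host transcripts *lncMGC* and *Mirg* and other miRNAs of the same genomic cluster. Seeds of those other miRNAs were not searched here. The *Slc39a14* match lay at position 1475 of a UTR of 3200 bases, with the matching letters in capitals.
*Slc39a14* site: gaatcattgccAATCCCTgagtctttctg

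Among 10965 tested genes with an annotated 3′ UTR, 4.92% held a match for *miR-379-5p* and 8.43% for *miR-541-5p*. The UTRs of *Mt1*, *Mt2*, *Slc39a4* and *Slc39a5* were short, between 119 and 147 bases, against a median of 1119 bases, while those of the other 4 genes were between 3200 and 5460 bases long.

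Of the 8 genes, 6 were differentially expressed between AAV-TuD and AAV-NC livers. *Mt1*, *Mt2* and *Slc39a4* rose with AAV-TuD, *Slc30a1*, *Slc30a10* and *Slc39a14* fell, and *Mtf1* and *Slc39a5* did not pass the test (edgeR quasi-likelihood test, Benjamini-Hochberg adjusted p under 0.05 over all genes tested). Over all genes tested, 11.6% passed this threshold, 7.24% as higher and 4.33% as lower. The groups did not overlap for 3 of the 8 genes, *Slc39a4*, *Slc30a10* and *Slc39a14*, against 7.39% of all genes. The median log2 fold change of the 8 genes was −0.04, against −0.00 for all genes. Levels are in CPM, the reads of a gene scaled to a common library total, with totals adjusted by the trimmed mean of M values (TMM). In bulk liver, a change in the number of cells of a type and a change in their RNA per cell cannot be told apart.

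**Figure D1:**
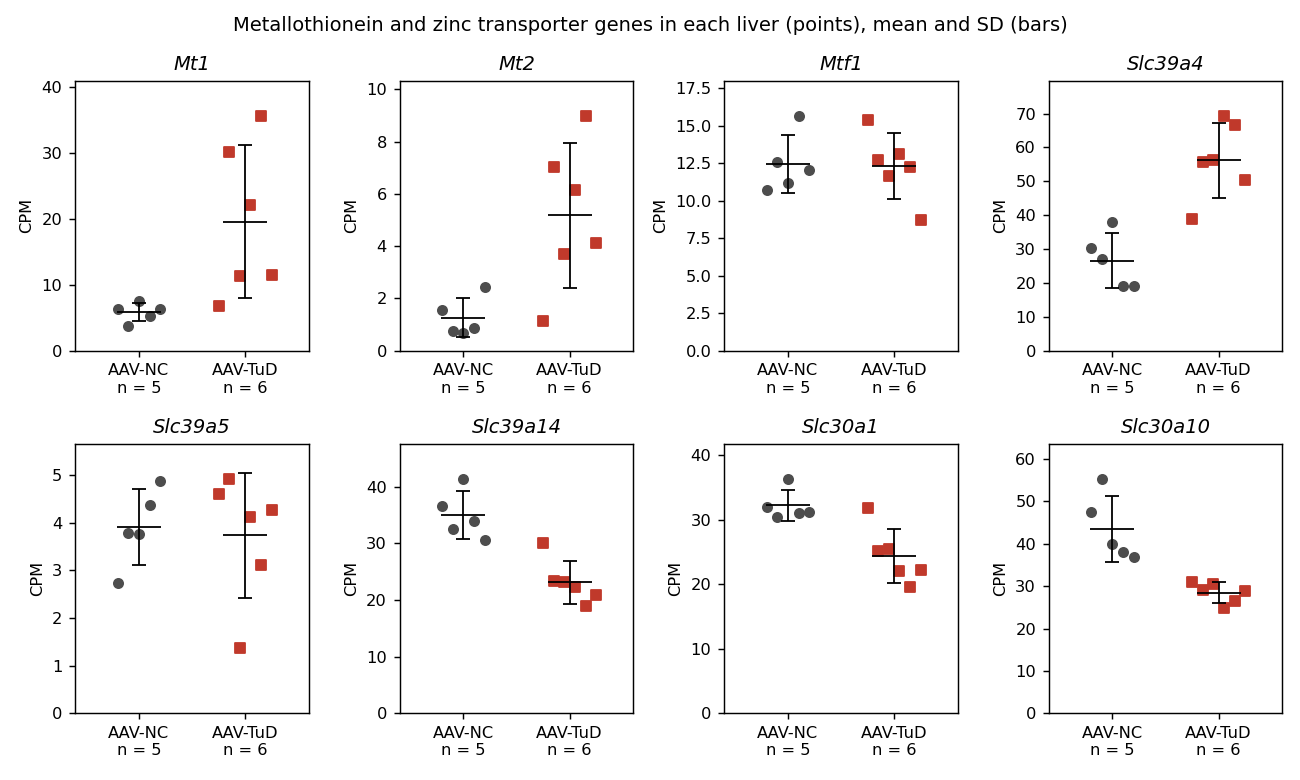
Level of each of the 8 genes in CPM (vertical axes, from 0) in the 5 AAV-NC livers (circles) and the 6 AAV-TuD livers (squares), with the mean and SD of each group. *Slc39a4* is higher and *Slc30a10* and *Slc39a14* are lower in every AAV-TuD liver than in any AAV-NC liver, while 1 AAV-TuD liver lies within the AAV-NC range for *Mt1*, *Mt2* and *Slc30a1*.

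*Mtf1* (chr4:124802104-124849800, plus strand, ENSMUSG00000028890), the zinc sensor that drives the metallothionein promoters, was measured at 10.7, 12.6, 11.2, 15.6 and 12.1 CPM in AAV-NC livers 1, 2, 6, 7 and 8. In AAV-TuD livers its lowest, median and highest levels were 8.72, 12.5 and 15.4 CPM. The groups overlapped across nearly their whole range. The log2 fold change was −0.01 (SE 0.14, 95% interval −0.30 to 0.28, adjusted p = 0.969).

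*Mt1* (chr8:94179082-94180327, plus strand, ENSMUSG00000031765) encodes a metallothionein that binds zinc, copper and cadmium. Its level was 6.33, 3.78, 7.53, 5.26 and 6.33 CPM in AAV-NC livers 1, 2, 6, 7 and 8, from 30 to 68 reads. In AAV-TuD livers the lowest level was 6.76, the median 16.8 and the highest 35.5 CPM, from 72 to 412 reads. AAV-TuD liver 3 lay within the AAV-NC range, and the other 5 were above every AAV-NC liver. The spread also differed, from a tight AAV-NC group (5.84 ± 1.41 CPM, SD, n = 5) to a broad AAV-TuD group (19.6 ± 11.6 CPM, SD, n = 6). *Mt1* rose 3.34-fold (log2 fold change 1.74, SE 0.37, adjusted p = 0.00797, and p = 0.00866 in a two-sided exact permutation test over all splits of the livers). Without AAV-TuD liver 3 the log2 fold change was 1.91.

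*Mt2* (chr8:94172664-94173568, plus strand, ENSMUSG00000031762), which lies 5513 bases upstream of *Mt1* and encodes a closely related metal-binding protein, was low in controls. It had 13, 6, 6, 7 and 25 reads in AAV-NC livers 1, 2, 6, 7 and 8, equal to 1.55, 0.755, 0.664, 0.876 and 2.43 CPM. In AAV-TuD livers it reached from 1.13 through a median of 5.13 to 8.97 CPM, from 12 to 104 reads. As for *Mt1*, AAV-TuD liver 3 was the exception among 6, and the other 5 exceeded all controls. *Mt2* rose 4.01-fold (log2 fold change 2.0, SE 0.45, 95% interval 1.04 to 2.97, adjusted p = 0.0105, exact permutation p = 0.0130).

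The reads of *Mt1* outnumbered those of *Mt2* in every liver. The ratio was 4.08, 5, 11.3, 6 and 2.6 in AAV-NC livers 1, 2, 6, 7 and 8. In AAV-TuD livers it was 2.81 at the lowest, 3.77 at the median and 6 at the highest. The ranges overlapped, and the control ratios rest on few *Mt2* reads, 57 in all against 258 of *Mt1*, compared with 352 and 1329 in the AAV-TuD group. Across the 11 livers, with the mean of each group removed, *Mt1* and *Mt2* varied together (Pearson r = 0.80, exact within-group permutation p = 0.00561, adjusted p = 0.0393 over the 7 relations of *Mt1* with the other genes). Spearman's rho was 0.74 (exact permutation p = 0.0109, adjusted p = 0.0762). Without AAV-TuD livers 3 and 10, which were farthest from the median of *Mt1*, r fell to 0.53, so that much of the relation rests on those livers. For none of the other 6 genes did the relation with *Mt1* pass the adjustment. The values nearest to it were r = 0.55 for *Slc39a4* (rho 0.52, exact permutation p = 0.0441 for r and 0.114 for rho, adjusted p = 0.103 and 0.267) and r = −0.50 for *Slc30a10* (rho −0.55, exact permutation p = 0.0412 for r and 0.0472 for rho, adjusted p = 0.103 and 0.165), and without the same livers r was 0.29 and −0.47. For *Slc30a1*, *Slc39a14* and *Mtf1* r was −0.56, −0.45 and −0.12. Without AAV-TuD livers 3 and 10 these values changed sign, to 0.34, 0.42 and 0.27.

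*Slc39a4* (ZIP4, chr15:76612383-76617384, minus strand, ENSMUSG00000063354), the plasma membrane importer best known for zinc uptake in the intestine, had the clearest rise of the carriers. AAV-NC livers 1, 2, 6, 7 and 8 held 30.2, 26.9, 38.0, 19.0 and 19.0 CPM. AAV-TuD livers held from 38.9 through a median of 56.0 to 69.2 CPM. All 6 AAV-TuD livers were above all controls, though the gap between AAV-TuD liver 3 and AAV-NC liver 6 was under 1 CPM. *Slc39a4* rose 2.11-fold (26.6 ± 8.02 against 56.2 ± 11.04 CPM, SD, log2 fold change 1.08, SE 0.18, adjusted p = 0.00192, exact permutation p = 0.00433).

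*Slc39a14* (ZIP14, chr14:70303469-70351425, minus strand, ENSMUSG00000022094), the hepatocyte importer of zinc, manganese and iron that carries the *miR-541-5p* seed match shown above, went the other way. Its level was 36.6, 32.5, 41.4, 33.9 and 30.6 CPM in AAV-NC livers 1, 2, 6, 7 and 8, and 18.9, 22.8 and 30.1 CPM at the lowest, median and highest of the AAV-TuD livers. The groups did not overlap, with AAV-TuD liver 3 just under the lowest control and the other 5 well apart. *Slc39a14* was 1.51-fold lower with AAV-TuD (35.0 ± 4.21 against 23.1 ± 3.82 CPM, SD, log2 fold change −0.60, SE 0.11, adjusted p = 0.00384, exact permutation p = 0.00433).

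*Slc39a5* (ZIP5, chr10:128395931-128401229, minus strand, ENSMUSG00000039878), an importer of the basolateral membrane, had 2.75, 3.78, 3.76, 4.38 and 4.87 CPM in AAV-NC livers 1, 2, 6, 7 and 8. The AAV-TuD livers ran from 1.38, in liver 5, through a median of 4.20 to 4.92 CPM. Apart from AAV-TuD liver 5 and its 13 reads, the groups covered the same range. The log2 fold change was −0.06 with a wide interval of −0.60 to 0.48 (adjusted p = 0.916). Without AAV-TuD liver 5 the log2 fold change was 0.10 and its SE fell from 0.25 to 0.18.

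*Slc30a10* (ZnT10, chr1:185454848-185468762, plus strand, ENSMUSG00000026614) exports manganese from hepatocytes. It stood at 47.5, 55.3, 39.8, 37.9 and 36.9 CPM in AAV-NC livers 1, 2, 6, 7 and 8, and at 24.8, 29.0 and 30.9 CPM at the lowest, median and highest of the AAV-TuD livers. Every AAV-TuD liver was below every control, and the AAV-TuD group was the tighter (28.5 ± 2.41 against 43.5 ± 7.79 CPM, SD). *Slc30a10* was 1.53-fold lower (log2 fold change −0.61, SE 0.11, adjusted p = 0.00259). Its exact permutation p of 0.00216 is the smallest that the splits can give.

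*Slc30a1* (ZnT1, chr1:191906767-191913247, plus strand, ENSMUSG00000037434), the zinc exporter of the plasma membrane and a classical MTF1 target, had 32.0, 30.5, 36.3, 31.0 and 31.1 CPM in AAV-NC livers 1, 2, 6, 7 and 8. The AAV-TuD livers ran from 19.6 through a median of 23.7 to 31.8 CPM. AAV-TuD liver 3 lay among the controls, and the other 5 were below them all. *Slc30a1* was 1.32-fold lower (log2 fold change −0.40, SE 0.11, adjusted p = 0.0257, exact permutation p = 0.0108), and it moved opposite to *Mt1* and *Mt2*. This call was the weakest of the 6. The adjusted p was 0.0680 without AAV-NC liver 6, 0.0606 without AAV-TuD liver 9, 0.0545 without AAV-TuD liver 10 and 0.0569 without AAV-TuD liver 11.

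**Figure D2:**
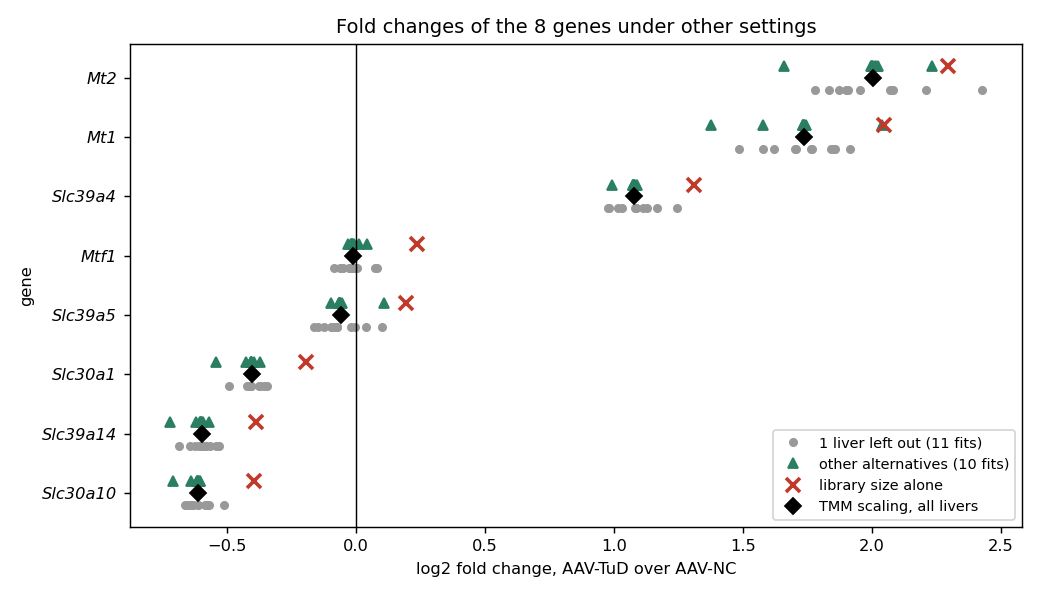
Log2 fold change of the 8 genes (horizontal axis) with all livers and TMM scaling (diamonds), with 1 liver left out (grey points), with library size alone (crosses) and under 10 other alternatives (triangles). The rises of *Mt1*, *Mt2* and *Slc39a4* and the falls of *Slc30a1*, *Slc30a10* and *Slc39a14* keep their direction in every fit, whereas *Mtf1* and *Slc39a5* cross 0.

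The calls of the 3 falls depended on the scaling, and those of the 3 rises did not. With library size alone the median over the whole table shifted to 0.23 on the log2 scale, and relative to that shift the fold changes were close to those with TMM. *Slc30a10*, *Slc39a14* and *Slc30a1* then had log2 fold changes of −0.40, −0.39 and −0.19, with adjusted p values of 0.142, 0.143 and 0.499 by edgeR, and only *Mt1*, *Mt2* and *Slc39a4* passed. The split of calls over all genes moved as well, from 62.6% higher with TMM to 95.1% higher with library size alone.

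AAV-TuD liver 3 was the AAV-TuD liver nearest to the AAV-NC mean, on the log2 CPM scale, for all 6 genes that passed. It was nearest for 41.1% of the 1543 genes that passed in the whole table, and AAV-TuD liver 5 for 25.2%. These livers also had a large share of reads on the major urinary protein (*Mup*) genes, abundant hepatocyte transcripts, at 30.9% and 28.4%, against 8.09% to 15.3% in the other AAV-TuD livers. AAV-NC liver 7 had 38.6% and the other controls 13.8% to 18.7%. With these 3 livers left out, a choice made after the data had been seen, the same 6 genes passed, with log2 fold changes of 2.04 for *Mt1*, 2.23 for *Mt2*, 1.09 for *Slc39a4*, −0.71 for *Slc30a10*, −0.72 for *Slc39a14* and −0.54 for *Slc30a1*. With the *Mup* share as a covariate, also added afterwards, the same 6 passed as well, and the fold changes of the metallothioneins were smaller, at 1.38 for *Mt1* and 1.66 for *Mt2* on the log2 scale. Total reads per liver were between 8148531 and 12043959.

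**Figure D3:**
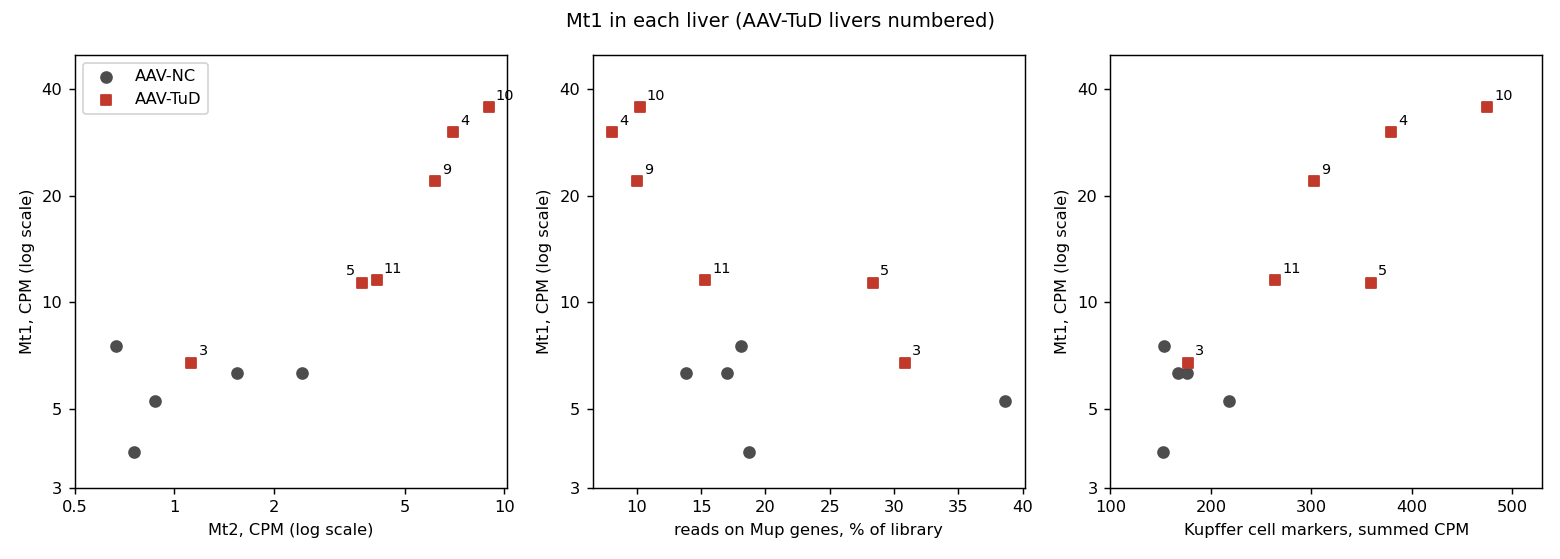
*Mt1* in CPM (vertical axes, log scale) in each liver against *Mt2* in CPM (log scale), the percentage of reads on *Mup* genes, and the summed CPM of 12 Kupffer cell markers, with AAV-NC livers as circles and AAV-TuD livers as numbered squares. AAV-TuD liver 3 lies with the controls for *Mt1*, *Mt2* and the Kupffer cell sum, and AAV-TuD livers 4 and 10, the highest in *Mt1*, are also the highest in *Mt2* and in the Kupffer cell sum. AAV-TuD liver 5 does not follow this order. It has a Kupffer cell sum of 359 CPM and *Mt1* at 11.4 CPM, against 303 and 22.0 CPM in AAV-TuD liver 9.

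Marker lists of some liver cell types differed between the groups, and those of others did not. Over all genes tested, 7.24% were higher and 4.33% lower. The hepatocyte list, led by *Alb*, summed to between 55166 and 61358 CPM in AAV-NC livers and between 60639 and 68501 in AAV-TuD livers, and 1 of its 11 tested genes, *Hnf4a*, passed as lower. Of 12 Kupffer cell markers, 9 were higher, with sums of 152 to 218 and 177 to 475 CPM and *Ctss* the most abundant. AAV-TuD liver 3, at 177 CPM, was the only AAV-TuD liver within the control range of this sum. Of 13 stellate cell markers, 9 were higher (259 to 338 and 440 to 586 CPM, led by *Dcn*). All 7 tested cholangiocyte markers, of 11 listed, were higher (200 to 290 and 308 to 428 CPM, led by *Krt8*). A marker with few reads can pass the filter through the livers of 1 group alone. Of 4 tested neutrophil and monocyte markers, of 9 listed, *Ccr2*, *Cybb* and *Lyz2* were higher and *S100a9* did not pass (24.7 to 41.1 and 42.1 to 103 CPM, led by *Lyz2*). Sinusoidal endothelial markers had 1 of 11 higher, *Maf*, with sums of 415 to 475 and 445 to 485 CPM. Of 5 erythroid markers 0 passed in edgeR, DESeq2 or limma-voom, with 4 higher at an unadjusted p under 0.05 (1915 to 2754 and 2517 to 7003 CPM, led by *Hba-a1*), and the 1 pancreatic acinar gene tested, *Cela1*, was lower (log2 fold change −1.04). The part of other cell types in the changes of *Mt1*, *Mt2* and *Slc39a4* was not tested.

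By within-group variation, the genes most like the mean of *Mt1* and *Mt2* were *Ctsb* (r = 0.96), *Psap* (0.95), *H2-Aa* (0.95), *Slc43a2* (0.94) and *Ptprc* (0.94), out of 8371 genes whose mean was 50 reads or more. These are Pearson correlations of log2 CPM over the 11 livers after removal of each group's mean, given as a description, and the livers share library and scaling with both measures. *Ctsb* and *Psap* encode lysosomal proteins, *H2-Aa* a class II antigen-presenting chain, *Slc43a2* an amino acid transporter, and *Ptprc* the leukocyte antigen CD45. Of the 5 genes, *H2-Aa*, *Slc43a2* and *Ptprc* were higher with AAV-TuD, with log2 fold changes of 1.63, 0.59 and 0.70 (adjusted p = 0.00348, 0.0488 and 0.0296), while *Ctsb* and *Psap* had log2 fold changes of 0.04 and 0.25 (adjusted p = 0.859 and 0.0912). Without AAV-TuD livers 3 and 10 the correlations were between 0.82 and 0.90, and without AAV-TuD liver 3 alone only 1 of the 5 remained among the first 5.

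Of 24 *Slc30* and *Slc39* genes, 18 were tested, and 1 was higher and 4 were lower. The 13 tested genes outside the 8 described gave 1 call, against 11.6% of all genes. This was *Slc39a6* (ZIP6), which fell with AAV-TuD (3.99 ± 1.35 against 2.09 ± 0.540 CPM, SD, log2 fold change −0.93, SE 0.25, adjusted p = 0.0229). It rested on 16 to 55 reads a liver and missed the threshold in 4 of the 11 fits with a liver left out, with adjusted p values up to 0.0669, and in 3 of the other 11 alternatives, limma-voom among them, with values up to 0.133. The other 12 had log2 fold changes between −0.30 and 0.38 and adjusted p values between 0.151 and 0.975. Among them was *Slc39a8*, a close relative of *Slc39a14* and also a manganese importer, at −0.13 (SE 0.15, adjusted p = 0.635). Of 7 ZnT exporters 2 passed, both lower (median log2 fold change −0.21), and of 11 ZIP importers 1 was higher and 2 were lower (median −0.06). *Mt3*, *Mt4*, *Slc30a2*, *Slc30a3*, *Slc30a8*, *Slc39a2*, *Slc39a7* and *Slc39a12* were not analysed here.

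**Figure D4:**
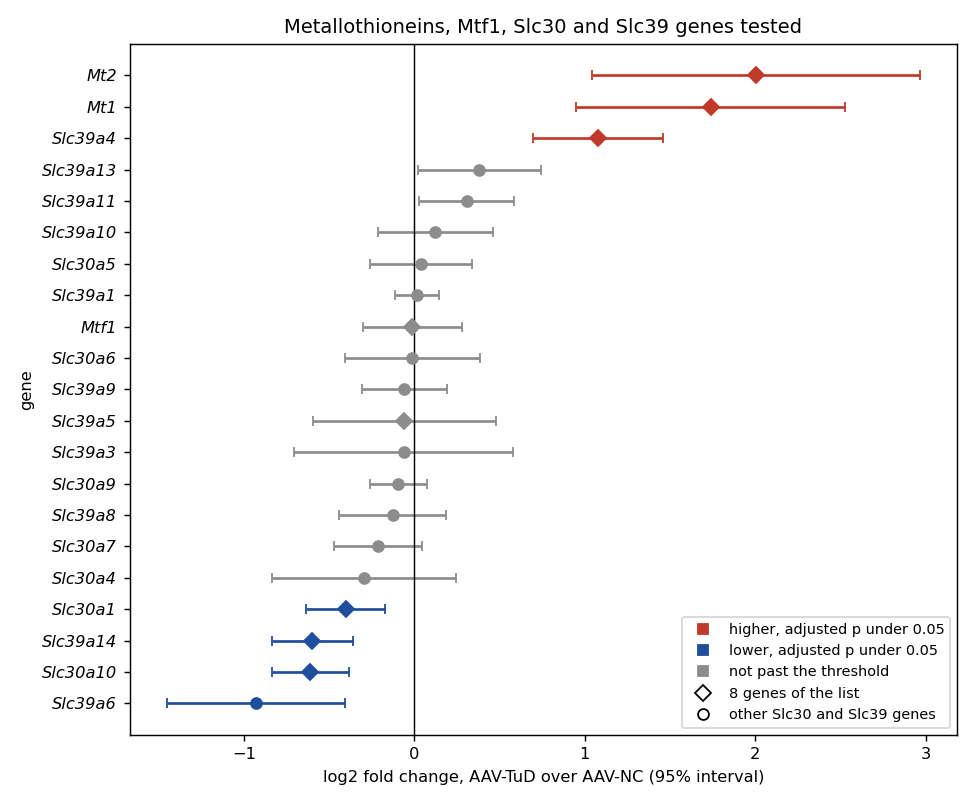
Log2 fold change of AAV-TuD over AAV-NC with its 95% interval (horizontal axis) for the metallothioneins, *Mtf1* and all tested *Slc30* and *Slc39* genes, coloured by the edgeR call, with diamonds for the 8 genes described and circles for the others. *Mt2*, *Mt1* and *Slc39a4* stand at 2.0, 1.74 and 1.08, *Slc39a6*, *Slc30a10*, *Slc39a14* and *Slc30a1* lie below 0, and the remaining genes did not pass the threshold.

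Of 10 listed MTF1 targets, 4 were higher (*Mt1*, *Mt2*, *Csrp1* and *Tgfbi*), 1 was lower (*Slc30a1*) and 5 did not pass, with a median log2 fold change of 0.27. The list does not record whether MTF1 raises or lowers each gene, so these counts have no expected direction. Without *Mt1* and *Mt2*, 2 of 8 were higher and 1 lower, against 7.24% and 4.33% of all genes tested. *Csrp1*, which encodes a zinc-binding LIM protein, rose from 5.77 ± 0.640 to 9.87 ± 1.63 CPM (SD, log2 fold change 0.77, SE 0.14, adjusted p = 0.00320). *Tgfbi*, which encodes an extracellular matrix protein, rose from 7.24 ± 1.29 to 14.9 ± 2.36 CPM (log2 fold change 1.04, SE 0.14, adjusted p = 4.39e-04), and neither gene overlapped between the groups.

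Metallothioneins also bind copper, and the copper genes gave 2 higher, 1 lower and 10 not past the threshold of 13 tested (median log2 fold change 0.06). Over all genes tested, 7.24% were higher and 4.33% lower. *Cp*, the plasma copper carrier ceruloplasmin, rose from 660 ± 36.0 to 905 ± 43.0 CPM (log2 fold change 0.45, SE 0.07, adjusted p = 0.00149). *Atox1*, a copper chaperone, rose from 59.1 ± 4.40 to 74.0 ± 5.60 CPM (0.32, SE 0.07, adjusted p = 0.0117). *Sod1*, the copper and zinc superoxide dismutase, fell from 1308 ± 59.0 to 1056 ± 63.4 CPM (log2 fold change −0.31, SE 0.08, adjusted p = 0.0177), but with library size alone its log2 fold change was −0.08 (adjusted p = 0.814).

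Further lists hold signals to which metallothionein genes are known to respond. Of 17 tested glucocorticoid receptor targets, 5 were higher, 0 lower and 12 not past the threshold. Their log2 fold changes ran from −0.61 to 2.28, with a median of −0.04. Over all genes tested, 7.24% were higher and 4.33% lower. Without *Mt1* and *Mt2*, 3 of 15 were higher, *Cdkn1a* (1.95), *Lcn2* (2.28) and *Pdk4* (0.94), named after their values were seen. *Lcn2* is also on the acute phase list below. The 12 that did not pass were *Fkbp5*, *Tsc22d3*, *Per1*, *Sgk1*, *Tat*, *Zbtb16*, *Klf9*, *Dusp1*, *Errfi1*, *Angptl4*, *Pck1* and *Tdo2*. At an unadjusted p under 0.05, 2 genes of this list were lower, and DESeq2 and limma-voom called 0 lower after adjustment. Without AAV-NC liver 2 or AAV-TuD liver 11, 1 gene was lower. With *Mt1* and *Mt2* counted, the 5 higher genes became 4 to 5 with 1 liver left out. They became 4 with the *Mup* share as a covariate and 3 without the 3 livers of highest *Mup* share. *Mt1* and *Mt2* were among those 3. Of 22 acute phase genes, 4 were higher and 4 lower (median −0.10), beside the shares over all genes given above. With library size alone 6 were higher and 0 lower, and without AAV-NC liver 8, AAV-TuD liver 4 or AAV-TuD liver 9 the lower count was 2. With TMM the higher ones were *Saa1* (1.77), *Saa2* (2.02), *Lcn2* and *Cp*, and the lower ones *Slc39a14*, *Itih3* (−0.35), *Itih4* (−0.37) and *Lbp* (−0.51), also named after their values were seen. *Slc39a14* is known to be induced by interleukin-6.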

How the data were processed

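Liver RNA of 11 mice, 5 AAV-NC and 6 AAV-TuD, was grouped by the sample labels. The authors prepared 3′ libraries (QuantSeq V2), trimmed adapters with BBDuk, ran STAR 2.5.3a (version per the submitters' processing notes) against GRCm38 and used Rsubread to assign reads to genes. The table they deposited holds raw read counts, with no scaling. The strand setting, the annotation and the treatment of reads that match several genes are not given in the sources used here. In each liver 8148531 to 12043959 reads were counted, and genes with few reads carry large counting error. No replicates agreed within counting noise.

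A gene was kept where 5 or more livers had over 10 reads for it. Tests used the quasi-likelihood test of edgeR 4.0.16 (R 4.3.3, TMM factors, Benjamini-Hochberg adjustment), in a script tested on simulated data. CPM values were scaled by TMM, and a prior count of 2 was added before logarithms. Single genes were also tested by two-sided exact permutation of the livers. No source says whether the livers were processed in batches.

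Named genes were the 8, other *Slc30* and *Slc39* genes and MTF1 target and copper genes past the threshold, the 5 genes most correlated with *Mt1* and *Mt2*, and leading or absent markers. *Cdkn1a*, *Lcn2*, *Pdk4*, *Saa1*, *Saa2*, *Itih3*, *Itih4*, *Lbp*, *Hnf4a*, *Ccr2*, *Cybb*, *S100a9* and *Slc39a8* fall outside this rule, and their values had been seen when they were chosen. The 12 glucocorticoid receptor targets that did not pass also fall outside it and are named without values. The 8 genes and all lists were chosen with earlier results of these data known. *Krt7*, *Tspan8*, *Cldn7* and *Cldn4* of the cholangiocyte list were not analysed here. The same holds for *S100a8*, *Ly6c2*, *Itgam*, *Csf3r* and *Retnlg* of the neutrophil and monocyte list and all but 1 of 15 pancreatic acinar markers.

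Positions are from GENCODE M21 (GRCm38), which held all tested identifiers, and promoters and miRNAs from RefSeq (GRCm38.p6). Exons of *Mt2*, *Mtf1*, *Slc30a1* and *Slc30a10* overlap genes on the other strand (*Gm45774*, *1110065P20Rik*, *1700034H15Rik* and *Gm2061*) by 212 to 721 bases, and without a stated strand setting their reads cannot be told apart. The last 400 bases of the 8 genes, *Mt1* and *Mt2* included, matched no other annotated transcript over 50 bases at 85% identity (blastn 2.17.0).

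Alternatives were another test (DESeq2 1.42.0, or limma-voom 3.58.1 with quality weights), another scaling in edgeR (DESeq2's size factors, the upper quartile, library size alone, or TMM computed without the *Mup* genes or without the 50 most abundant genes), another filter (none, or filterByExpr) and the omission of each liver in turn. The *Mup* share as a covariate and the removal of the 3 livers with the highest share were chosen after seeing the data.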

Additional observations from a re-analysis of the deposited data

Results flagged for a closer look

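In 32 groups of values, each group of 5 or 6 livers for the genes named with their values, the ratio of *Mt1* to *Mt2* reads and the *Mup* share, 2 livers stood far from the rest of their group by the gap to the nearest liver over the whole range. About 1.6 such flags come by chance at 5% per group. *Slc30a1* was highest in AAV-NC liver 6, at 36.3 CPM against 30.5 to 32.0 in the other 4 controls (ratio 0.738), and without this liver the adjusted p of *Slc30a1* by edgeR was 0.0680. The *Mup* share was highest in AAV-NC liver 7, at 38.6% against 13.8% to 18.7% (ratio 0.804), and without this liver the same 6 genes passed.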

How the results depend on the processing

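*Mt1*, *Mt2* and *Slc39a4* passed as higher in all 22 alternatives. Their log2 fold changes lay between 1.38 and 2.05, 1.66 and 2.43, and 0.98 and 1.31. *Slc30a10*, *Slc39a14* and *Slc30a1* kept their direction in all 22, but with library size alone they did not pass (−0.40, −0.39 and −0.19), which left 3 of the 8 genes called. That scaling moves the median of all genes by 0.23. *Slc30a1* was between −0.49 and −0.34 with 1 liver left out and lost its call in 4 of those 11 fits, so that 5 to 6 of the 8 genes passed. *Mtf1* changed sign with library size alone (0.23), with the *Mup* share as a covariate (0.043), without the 3 livers of highest *Mup* share (0.010) and with AAV-NC liver 7, AAV-TuD liver 5 or AAV-TuD liver 11 left out (0.081, 0.0027 and 0.07, range −0.085 to 0.081). *Slc39a5* changed sign with library size alone (0.19), without the 3 livers (0.11) and with AAV-NC liver 8 or AAV-TuD liver 5 left out (0.04 and 0.10, range −0.16 to 0.10), and neither gene passed in any fit. Over all genes, 1012 to 1829 passed with 1 liver left out against 1543, the fewest without AAV-TuD liver 4. With 1 liver left out, 1 to 5 of the 5 genes most like *Mt1* and *Mt2* remained among the first 5, and 2 with library size alone. Apart from the shift of the median, the cause of these changes was not tested. No paired analysis was possible because no replicate number occurs in both groups. With 6 to 25 *Mt2* reads per control liver and 13 to 54 *Slc39a5* reads per liver, counting error is large for both.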
